A study of Mus musculus with 47 samples.

Results

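Type IV collagen is the sheet-forming collagen of basement membranes, and its 6 chains are encoded by the genes Col4a1 to Col4a6. Their transcripts were followed in whole mouse retina at 6 weeks (young) and 20 months of age (aged). The family list gives the 6 genes, which were matched by symbol to Ensembl identifiers among the 57180 genes measured. The family was chosen by its measured age difference, that of Col4a3 in these libraries, so age differences of the chains are described here with their errors and without a test. Rhythm over the day, change of the age difference over the day and variation between libraries of one group are other measures than that difference and were tested, though earlier results of these data were known when the tests were chosen.

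Type IV collagen chains wind around each other as trimers, and the trimers join into a network that also binds laminin, nidogen and perlecan. The products of Col4a1 and Col4a2 pair in nearly all basement membranes, those of Col4a3, Col4a4 and Col4a5 combine in a few specialised ones, and that of Col4a6 combines with Col4a5. In the eye these networks lie in the inner limiting membrane, vessel walls, Bruch's membrane beneath the pigment epithelium, and the lens capsule. Mutations of COL4A3, COL4A4 or COL4A5 cause Alport syndrome of kidney, inner ear and eye, while mutations of COL4A1 or COL4A2 cause disease of small vessels. The genes lie as 3 head-to-head pairs, Col4a1 with Col4a2, Col4a3 with Col4a4 and Col4a5 with Col4a6, in which both partners are read outwards from a shared start region.

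All animals were C57BL/6 mice, an inbred laboratory strain with no engineered allele named in the labels, held in 12 h of light and 12 h of darkness. Retinas of the right eye were taken at 6 zeitgeber times (ZT, hours from lights on). The light period held ZT2, ZT6 and ZT10, and darkness held the remaining times, ZT14, ZT18 and ZT22. Each age and time had 4 mice and 4 libraries, apart from aged ZT18 with 3, so 24 young and 23 aged libraries of polyadenylated RNA were compared. Levels are RPKM, the reads of a gene divided by its exon length in kilobases and by the mapped reads of the library in M, which are scaled for gene length and can be set side by side between genes.

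Libraries held 32.04 to 55.51 M reads (median 37.15 in young, 36.97 in aged). Gnat1, which encodes the rod transducin alpha subunit, averaged 3319 ± 1187 RPKM in young (SD, n = 24) and 3193 ± 571.9 in aged (n = 23). Young ZT10 replicate 4 stood apart, with a summed level of 8 endothelial markers of 1.476 RPKM against 7.364 to 28.97 in the 45 others, of 8 pericyte and smooth muscle markers of 0.208 against 2.908 to 8.67, and of 8 Müller glia markers of 92.14 against 568.8 to 1055. Aged ZT6 replicate 3 was at 437.4 RPKM for Müller glia and 15.15 for 8 microglia markers, where the 45 others began at 568.8 and 17.9. Results that rest on these libraries are given with and without them. In whole retina fewer cells of a type and less RNA per cell cannot be told apart.

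The short stretch between the start sites of Col4a4 and Col4a3 is shown because these are the chains with the larger age differences and the daily rhythms described below. It lies on chr1:82586850-82586920 of the RefSeq annotation of GRCm38.p6, in the interval between the 5′-most annotated starts, and spans 71 bases. The deposited values were made on GRCm39, so the coordinates belong to the earlier build alone. Both readings run 5′ to 3′ and the capitals mark the only match found, GATTA or its reverse complement, the core recognised by the photoreceptor homeobox factors CRX and OTX2.
Col4a4 strand: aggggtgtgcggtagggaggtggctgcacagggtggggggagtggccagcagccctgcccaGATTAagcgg
Col4a3 strand: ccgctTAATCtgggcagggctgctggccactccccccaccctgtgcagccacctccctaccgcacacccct
Its GC content was 69.0%, against a median of 54.9% over the 71 bases before the start of 32851 RefSeq genes. GATTA on either strand was present in 5.27% of those windows. On both strands no match was found to the GC box GGGCGG (20.7% of windows), the CCAAT box CCAAT (13.3%), the TATA box TATAAA (4.41%), the E-box CACGTG (2.38%), the D-box TTATGTAA (0.256%), the ROR core AGGTCA (4.13%) or the cAMP response element TGACGTCA (0.907%). A match is a description of letters and not a site of binding.

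In young retina the means were 2.07 ± 0.843 RPKM (SD, n = 24) for Col4a2, 1.97 ± 0.587 for Col4a3, 1.80 ± 1.02 for Col4a1, 1.44 ± 0.336 for Col4a4, 0.470 ± 0.235 for Col4a5 and 0.194 ± 0.118 for Col4a6. Neighbours among the first 4 overlapped in their spread: Col4a2 was above Col4a3 in 15 of 24 libraries, Col4a3 above Col4a1 in 16 and Col4a1 above Col4a4 in 13. Chains further apart in that order were more often in it, with Col4a3 above Col4a4 in 21 of 24 and Col4a2 above Col4a4 in 19. Col4a4 was above Col4a5, and Col4a5 above Col4a6, in 24 of 24.

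In aged retina the order was led by Col4a3 at 4.99 ± 1.72 RPKM (SD, n = 23), followed by Col4a4 at 2.49 ± 0.359, Col4a1 at 1.59 ± 0.862, Col4a2 at 1.58 ± 0.687, Col4a5 at 0.404 ± 0.148 and Col4a6 at 0.197 ± 0.0844. Col4a3 was above Col4a4 in 23 of 23 libraries and Col4a4 above Col4a1 in 20. Col4a1 and Col4a2 did not differ beyond their spread, Col4a1 being the higher in 10 of 23.

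Summed over the 6 chains, the level was 7.95 ± 2.53 RPKM in young and 11.2 ± 2.37 RPKM in aged. Col4a3 and Col4a4 together made up 44.9 ± 11.7% of the summed level in young and 67.0 ± 11.2% in aged, and Col4a1 and Col4a2 together 47.1 ± 9.95% and 27.6 ± 10.3%. These shares restate the age differences that entered the choice of the list.

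**Figure D1:**
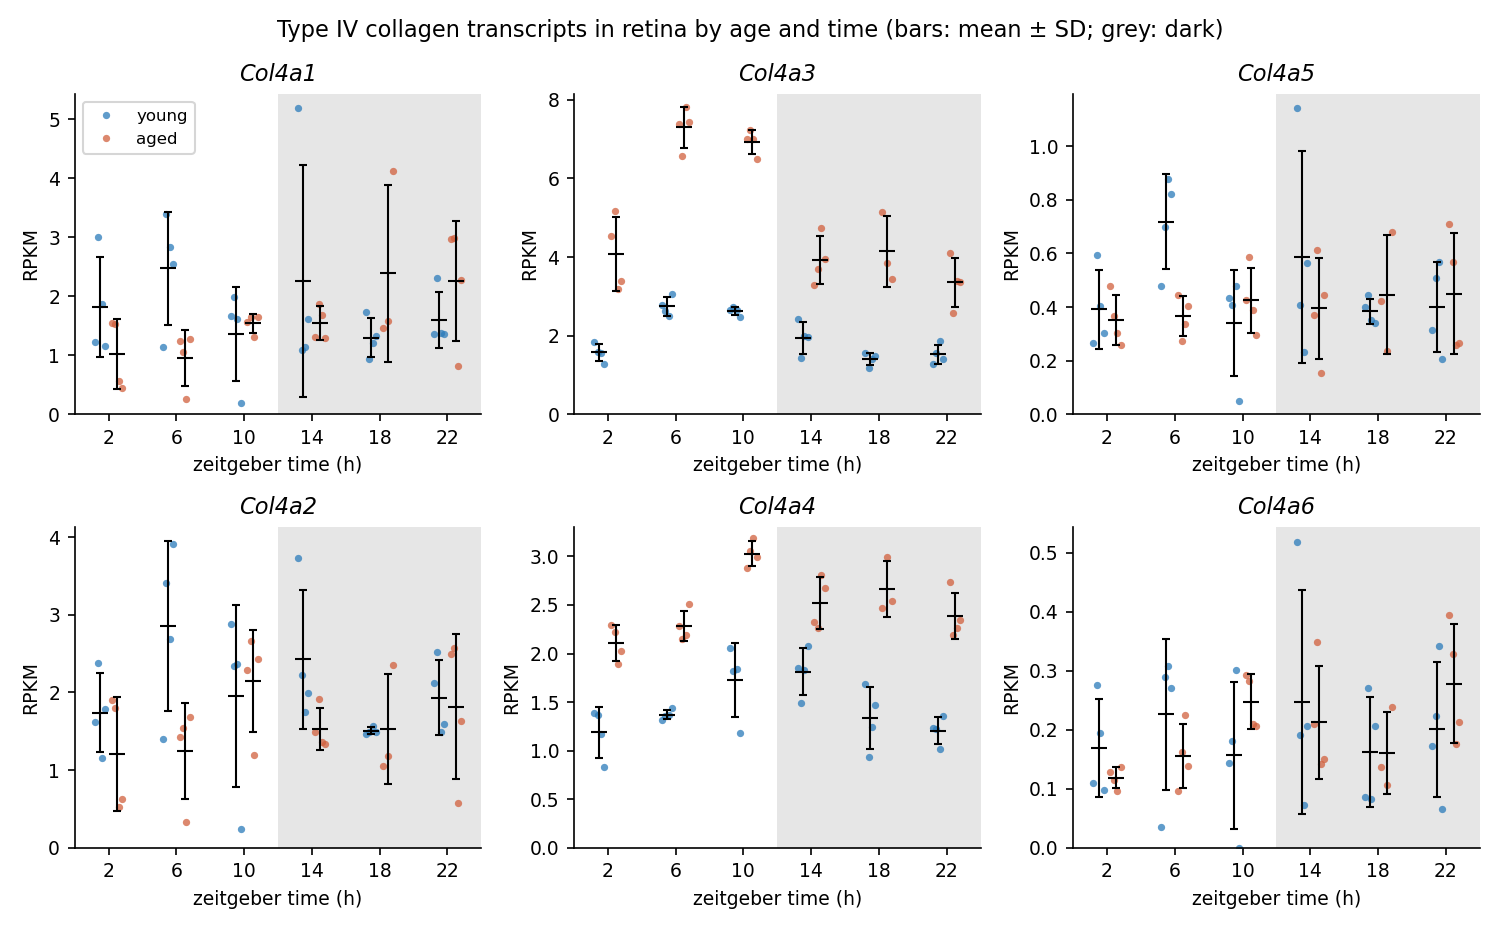
RPKM of each chain (vertical axis, linear, scaled per panel) by zeitgeber time in h, with 1 point per library, young in blue and aged in orange, black bars for mean ± SD and grey for darkness. Aged points of Col4a3 and Col4a4 sit above the young points at each of the 6 times, while those of the other 4 chains overlap at most times.

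Col4a3 encodes the chain whose end domain is the target of antibodies in Goodpasture disease. In young retina it was at 1.85, 1.59, 1.57 and 1.29 RPKM at ZT2, at 2.79, 2.63, 2.51 and 3.05 at ZT6, and at 2.66, 2.73, 2.65 and 2.47 at ZT10. In darkness it was at 2.43, 1.43, 1.98 and 1.96 RPKM at ZT14, at 1.56, 1.19, 1.40 and 1.48 at ZT18, and at 1.28, 1.55, 1.86 and 1.42 at ZT22. The 8 libraries of ZT6 and ZT10 (2.47 to 3.05) were all above the 16 of the other times (1.19 to 2.43).

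In aged retina ZT6 and ZT10 again held the high libraries of Col4a3, while the order of the other 4 times differed. They were at 4.53, 5.18, 3.19 and 3.40 RPKM at ZT2, at 7.39, 6.56, 7.81 and 7.44 at ZT6, and at 7.01, 7.23, 6.99 and 6.50 at ZT10. In darkness they were at 3.29, 3.68, 4.74 and 3.95 RPKM at ZT14, at 5.15, 3.84 and 3.44 at ZT18, and at 4.11, 2.57, 3.40 and 3.36 at ZT22. Again ZT6 and ZT10 (6.50 to 7.81) lay above all 15 libraries of the other times (2.57 to 5.18).

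At each of the 6 times every aged library of Col4a3 was above every young one. Such a separation at all 6 times in this direction was shown by 20 of the 15321 genes tested, 0.131%. At single times in the light it was shown by 2.25% of genes (ZT2), 1.64% (ZT6) and 2.64% (ZT10), and in darkness by 4.95% (ZT14), 5.39% (ZT18) and 2.68% (ZT22). Across times the ranges did overlap, since the lowest aged library (2.57 RPKM at ZT22) was below the highest young one (3.05 at ZT6).

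The aged mean of Col4a3 was 2.53 times the young mean. On the scale of log2(RPKM + 0.5), which understates the change of low genes, the age difference was 1.11 ± 0.06 (SE). In the dark period it was 0.85 ± 0.13 at ZT14, 1.27 ± 0.14 at ZT18 and 0.92 ± 0.13 at ZT22, beside 1.12 to 1.27 (SE 0.13) in the light. Without the 2 libraries that stood apart it was 1.09 ± 0.06, and with endothelial and pericyte marker levels in the fit it was 1.11 ± 0.06. These values describe the contrast that entered the choice.

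Col4a4, the head-to-head partner of Col4a3, had a smaller age difference. Young libraries were at 1.39, 1.37, 1.17 and 0.830 RPKM at ZT2, at 1.32, 1.36, 1.37 and 1.44 at ZT6, and at 2.05, 1.82, 1.84 and 1.18 at ZT10. They were at 1.85, 1.49, 1.83 and 2.08 RPKM at ZT14, at 1.69, 0.939, 1.24 and 1.47 at ZT18, and at 1.23, 1.23, 1.02 and 1.35 at ZT22. The higher young values fell at ZT10 and ZT14, on either side of lights off, with the lowest ZT10 value in the replicate 4 that stood apart.

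In aged retina Col4a4 was at 2.29, 2.22, 1.89 and 2.02 RPKM at ZT2, at 2.28, 2.15, 2.19 and 2.51 at ZT6, and at 2.88, 3.05, 3.19 and 2.99 at ZT10. It was at 2.33, 2.27, 2.81 and 2.67 RPKM at ZT14, at 2.46, 2.99 and 2.54 at ZT18, and at 2.74, 2.19, 2.27 and 2.35 at ZT22. ZT10 held the highest mean of the 6 times. As for its partner, every aged library was above every young one at each of the 6 times.

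The aged mean of Col4a4 was 1.73 times the young mean, with an age difference of 0.64 ± 0.05 on the log2 scale. By time the difference ran from 0.39 ± 0.12 at ZT14 to 0.80 ± 0.13 at ZT18. Of the 5 chains that passed the filter on low values, 2 were called higher in aged at an adjusted p under 0.05 in limma, where 2.41% of all genes tested were, and 0 were called lower, where 1.83% were. Leaving out the 2 libraries that stood apart gave counts of 2, where 7.24% of genes were called, and 1, Col4a2, where 9.29% were. These counts use the contrast behind the list and nothing is read from them.

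Col4a1 and Col4a2, the chains of nearly all basement membranes, spread widely between libraries of one group. Col4a1 ran from 0.191 through a median of 1.50 to 5.19 RPKM in young and from 0.262 through 1.53 to 4.12 in aged. Col4a2 ran from 0.239 through 1.89 to 3.92 RPKM in young and from 0.335 through 1.54 to 2.67 in aged. The ages overlapped at each of the 6 times for both. The lowest young value of both came from ZT10 replicate 4 and the lowest aged value from ZT6 replicate 3, the libraries that stood apart.

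On the log2 scale the age difference was -0.13 ± 0.17 for Col4a1 and -0.31 ± 0.16 for Col4a2. Without the 2 libraries that stood apart it was -0.14 ± 0.15 and -0.34 ± 0.12, and without young ZT10 replicate 4 alone -0.21 ± 0.16 and -0.41 ± 0.13. By time it ran from -1.04 ± 0.38 at ZT6 to 0.58 ± 0.42 at ZT18 for Col4a1. For Col4a2 it ran from -0.97 ± 0.37 at ZT6 to 0.28 ± 0.37 at ZT10, the only time at which it was positive. Young ZT10 replicate 4, which stood apart, was at 0.239 RPKM for Col4a2 beside 2.33 to 2.88 in the other young ZT10 libraries. Values by time are not given without that library. The variation over the 6 times did not pass for either chain (adjusted p 0.838 in limma). At ZT6 Col4a1 was at 1.14, 3.39, 2.83 and 2.56 RPKM in young and at 1.24, 1.06, 0.262 and 1.27 in aged. With endothelial and pericyte marker levels in the fit, the age difference over all times was 0.01 ± 0.12 for Col4a1 and -0.20 ± 0.08 for Col4a2.

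Col4a5, the X-linked chain that joins Col4a3 and Col4a4 in a trimer, differed less between the ages. It ran from 0.0483 through a median of 0.420 to 1.14 RPKM in young and from 0.154 through 0.390 to 0.711 in aged, with an age difference of -0.08 ± 0.09. It passed the filter narrowly, with at least 0.5 RPKM in 13 libraries where 12 were required. At ZT6 alone the ages were apart, at 0.480, 0.697, 0.878 and 0.820 RPKM in young and 0.444, 0.275, 0.337 and 0.405 in aged. Of all genes tested, 6.09% had every aged library below every young one at ZT6.

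Col4a6 reached 0.5 RPKM in 1 library and was below the filter, so it entered no test among the chains. It was at 0 to 0.518 RPKM in young, which is 0 to 134 reads per library, and at 0.0955 to 0.394 in aged, which is 25 to 146 reads. In a fit without the filter its age difference was 0.01 ± 0.06. The library with 0 reads was young ZT10 replicate 4, where 3 reads, the limit that a count of 0 allows, correspond to 0.00678 RPKM. That limit covers counting error only. By comparison Col4a3 rested on 433 to 1365 reads per library in young and 927 to 3304 in aged, Col4a1 on 79 to 1257 and 83 to 1087, and Col4a5 on 18 to 249 and 34 to 222.

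Rhythm was tested in each age by fitting a cosine of 24 h to the log2 levels with limma, with Benjamini-Hochberg adjustment over all 15321 genes. The amplitude is the distance from the fitted mean to the fitted peak on the log2 scale. In young retina 2 of 5 chains, Col4a3 and Col4a4, were rhythmic at an adjusted p under 0.05, where 19.7% of all genes tested were. In aged retina 1 of 5, Col4a3, was rhythmic, where 14.4% of all genes were. Both ages were passed together by 1 of 5 chains and by 7.56% of genes.

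Col4a3 peaked in the later part of the light period at both ages. In young its amplitude was 0.41 ± 0.05 (SE) with a peak at ZT 8.51 ± 0.49 h, a fitted peak 1.76 times the trough and an adjusted p of 3.04e-05 in limma. In aged the amplitude was 0.52 ± 0.08 with a peak at ZT 8.07 ± 0.56 h, a fitted peak 2.05 times the trough and an adjusted p of 0.000272. Without the library of each age that stood apart the amplitudes were 0.41 and 0.50. With the levels of pigment epithelium, lens and blood markers in the fit, the young amplitude was 0.48 with an adjusted p of 0.000691, while the aged amplitude was 0.44 with an adjusted p of 0.217. In that fit 211 genes, 1.38% of those tested, were rhythmic in aged retina.

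The marker lists behind that fit moved with time themselves. Of 9 tested pigment epithelium markers 6 were rhythmic in young and 5 in aged, and of 5 blood markers 0 and 5, beside 19.7% and 14.4% of all genes. Rpe65, the isomerase of the visual cycle, peaked in darkness at ZT 18.40 in young and 17.67 in aged, when Col4a3 was low. The summed level of the 11 pigment epithelium markers ran from 7.53 to 108 RPKM in young and from 8.93 to 196 in aged, of the 12 lens markers from 1.40 to 1846 and from 2.22 to 1340, and of the 5 blood markers from 14.1 to 294 and from 12.2 to 823. Their part in the rhythm of Col4a3 was not tested beyond the fit given.

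Col4a4 had a later fitted peak than its partner, near lights off, and the difference between their peaks was not tested. In young its amplitude was 0.24 ± 0.06 with a peak at ZT 12.01 ± 0.90 h, a fitted peak 1.39 times the trough and an adjusted p of 0.0105 in limma. In aged the amplitude was 0.15 ± 0.04 with a peak at ZT 13.12 ± 1.13 h and an adjusted p of 0.0502, just short of the threshold. Without aged ZT6 replicate 3 that adjusted p was 0.0285, so the count of rhythmic chains in aged was then 2. The adjusted p was larger with library weights (0.0994), median-ratio scaling (0.205), pigment epithelium, lens and blood covariates (0.233) and quantile normalization (0.332), under which the amplitude was 0.10 to 0.15. When the 6 times were compared by an F test without a fixed shape, the adjusted p of Col4a4 was 0.0928 in young and 0.0371 in aged.

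**Figure D2:**
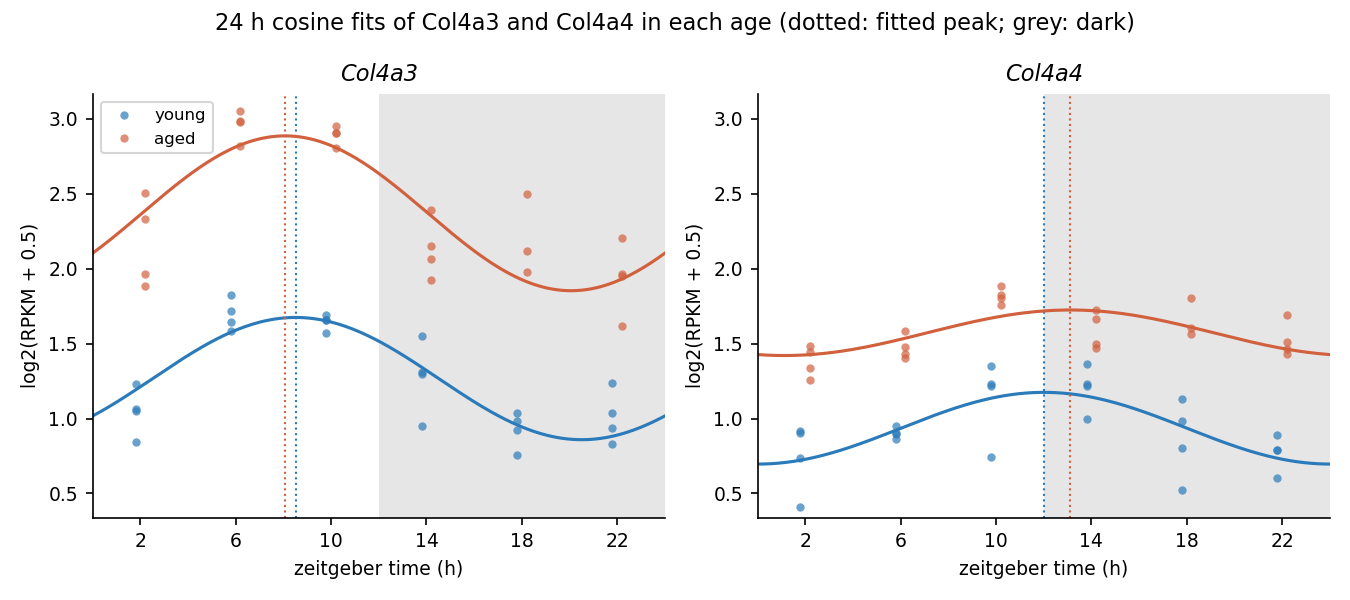
Log2(RPKM + 0.5) of Col4a3 (left) and Col4a4 (right) by zeitgeber time in h, with 1 point per library, the fitted 24 h cosine as a line, its peak as a dotted line and darkness in grey. The fitted peak of Col4a3 lies at ZT 8.51 in young and 8.07 in aged, and that of Col4a4 at 12.01 and 13.12.

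The other chains did not pass the test of rhythm. The adjusted p in young was 0.790 for Col4a1, 0.804 for Col4a2 and 0.786 for Col4a5, and in aged 0.0842, 0.540 and 0.867. The amplitude of Col4a1 in aged was 0.46 ± 0.15 with a peak at ZT 17.61 ± 1.16 h. It passed when endothelial and pericyte marker levels were in the fit, with an amplitude of 0.51 and an adjusted p of 0.0237, and with quantile normalization (0.49, adjusted p 0.0197). Without aged ZT6 replicate 3, which stood apart, its amplitude was 0.37 with an adjusted p of 0.129, and with weights for each library 0.29 with an adjusted p of 0.119. Without young ZT10 replicate 4, Col4a2 passed in young with an amplitude of 0.30 and an adjusted p of 0.0499. With weights for each library Col4a2 also passed in young, with an amplitude of 0.34 and an adjusted p of 0.00661.

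Differences of rhythm between the ages were not detected. For the test of a different cosine, 0 of 5 chains passed (adjusted p 0.606 to 0.727 in limma), where 1 gene of 15321, 0.00653%, did. At an unadjusted p under 0.05, 1 of 5 chains, Col4a1 at 0.0320, and 7.75% of genes passed. Aged minus young, the amplitude of Col4a3 differed by 0.11, with a 95% interval of -0.0754 to 0.293, and its peak by -0.45 h, with an interval of -1.91 to 1.02 h. The amplitude of Col4a4 differed by -0.09, with an interval of -0.226 to 0.0519, and its peak by 1.11 h, with an interval of -1.72 to 3.94 h. The amplitude of Col4a1 differed by 0.29 (-0.145 to 0.726), that of Col4a2 by 0.06 (-0.353 to 0.476) and that of Col4a5 by -0.05 (-0.293 to 0.189). The fitted peak of Col4a1 was at ZT 4.63 ± 3.78 h in young and ZT 17.61 ± 1.16 h in aged, a difference of -11.02 h (-18.77 to -3.26 h). That of Col4a2 differed by 6.58 h (-2.95 to 16.11 h) and that of Col4a5 by 9.8 h (-3.69 to 23.32 h). Young amplitudes of these chains, 0.17 ± 0.17, 0.14 ± 0.15 and 0.10 ± 0.10, were about as large as their errors. A peak is then poorly defined, and an interval from a normal approximation does not hold on a 24 h circle. No shift is read from these peak differences.

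The test of whether the age difference varied over the 6 times gave an adjusted p of 0.838 for each of the 5 chains, and 0 of 15321 genes passed it, which is 0%. At an unadjusted p under 0.05, Col4a1 passed at 0.0434, 1 of 5 chains against 4.8% of genes. With weights estimated for each library, Col4a1 (adjusted p 0.0226) and Col4a4 (0.0207) passed, as did 1597 genes in all, whereas limma voom on recovered reads called 0 chains and 0 genes.

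Whether Col4a3 and Col4a4 kept a constant ratio over the day was tested within each library, a measure taken up after the values had been seen. Unlike amplitudes as well as unlike peaks make a ratio rhythmic, so it does not test a difference of timing. At ZT2 the ratio was 1.35 ± 0.163 in young and 1.92 ± 0.308 in aged (SD, n = 4 each). It was highest at ZT6, at 2.00 ± 0.143 in young and 3.20 ± 0.263 in aged, and at ZT10 it was 1.58 ± 0.352 and 2.29 ± 0.129. In darkness it was 1.07 ± 0.170 and 1.55 ± 0.126 at ZT14, 1.08 ± 0.150 and 1.58 ± 0.447 at ZT18, and 1.30 ± 0.369 and 1.40 ± 0.157 at ZT22. In aged retina the 4 libraries of ZT6 (2.97 to 3.56) were above every library of the other times.

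A 24 h cosine was fitted to the log2 ratio of Col4a3 to Col4a4 after 0.5 RPKM was added to each level. In young it had an amplitude of 0.32 with a peak at ZT 6.12 (adjusted p 0.000307, permutation test of times with 100000 resamples, 4 tests). In aged the amplitude was 0.50 with a peak at ZT 6.93 (adjusted p 8e-05, permutation test). Without the libraries that stood apart the amplitudes were 0.31 and 0.47, with adjusted permutation p of 0.000133 and 4e-05. The partners thus did not keep a constant ratio over the day at either age.

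The ratio of Col4a1 to Col4a2 followed another course. In aged retina it was 0.862 ± 0.153 at ZT2, 0.772 ± 0.0756 at ZT6 and 0.768 ± 0.219 at ZT10, and then 1.02 ± 0.157 at ZT14, 1.49 ± 0.231 at ZT18 and 1.29 ± 0.136 at ZT22. Its cosine, fitted with 0.5 RPKM added to each level, had an amplitude of 0.37 with a peak at ZT 19.35 (adjusted p 8e-05, permutation test). In young the amplitude was 0.12 with an adjusted p of 0.478, and whether the ages differed in this ratio's rhythm was not tested. Pigment epithelium markers were also high in darkness, and their part in this ratio was not tested. The 5′ ends of Col4a1 and Col4a2 lie close together, and whether reads were counted by strand is not given in the sources used here.

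**Figure D3:**
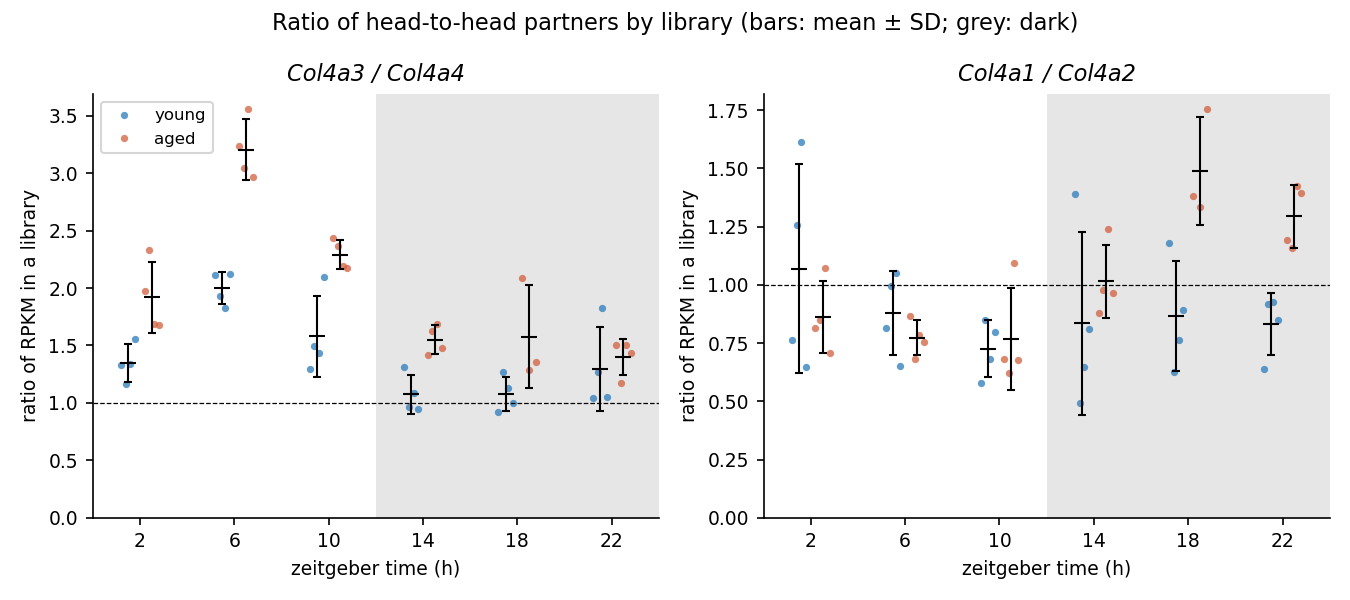
Ratio of RPKM within each library for Col4a3 over Col4a4 (left) and Col4a1 over Col4a2 (right) by zeitgeber time in h, with young in blue, aged in orange, black bars for mean ± SD and grey for darkness. The ratio of Col4a3 to Col4a4 is highest at ZT6 at both ages (means 2.00 and 3.20), and that of Col4a1 to Col4a2 is highest in aged retina at ZT18 (1.49).

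Variation between libraries of the same age and time was shared more closely by some pairs of chains than by others. It was measured as the deviation of log2(RPKM + 0.5) from the mean of its group over 47 libraries, with 10 pairs of chains compared by permutation tests of 100000 resamples. Col4a1 and Col4a2 deviated together, with Pearson's r of 0.873 and Spearman's rho of 0.868 (adjusted permutation p 3.33e-05 for each, from a raw p of 1e-05, the smallest that 100000 resamples can give). The r was 0.821 in young and 0.944 in aged, 0.859 without the 2 libraries farthest in Col4a1 and 0.819 without the 2 that stood apart.

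Col4a5 deviated with the same pair. Its r was 0.743 with Col4a1 (rho 0.699) and 0.654 with Col4a2 (rho 0.665), each with an adjusted permutation p of 3.33e-05. Without the 2 farthest libraries the r was 0.643 and 0.569, and without the 2 that stood apart it was 0.720 and 0.611. In young ZT14 replicate 1 all of Col4a1 (5.19 RPKM), Col4a5 (1.14) and Col4a6 (0.518) had their highest value of any library.

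Col4a3 and Col4a4 deviated together less closely, with r of 0.467 (adjusted permutation p 0.00215) and rho of 0.496 (adjusted p 0.00095). The r was 0.492 in young and 0.557 in aged, 0.418 without the 2 farthest libraries and 0.499 without the 2 that stood apart. Col4a3 had r of 0.237 with Col4a1, 0.111 with Col4a2 and 0.200 with Col4a5, and none passed (adjusted permutation p 0.154 to 0.459, rho 0.201, 0.103 and 0.203). A joint deviation of Col4a3 with Col4a5, its partner in a trimer, was not detected over both ages. By age, the r of Col4a3 was 0.420 in young and 0.000508 in aged with Col4a5, 0.436 and 0.0648 with Col4a1, and 0.179 and 0.0608 with Col4a2, and the difference between the ages was not tested.

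Col4a4 deviated less closely with Col4a1, and far less closely with Col4a2, once the libraries that stood apart were left out. Its r was 0.460 with Col4a1 (adjusted permutation p 0.00244) and 0.378 with Col4a2 (adjusted p 0.0155). The rho was 0.397 (adjusted permutation p 0.0114) and 0.282 (adjusted p 0.0919). Without those 2 libraries the r was 0.312 (adjusted permutation p 0.0733) and 0.143 (adjusted p 0.418). By age, the r of Col4a4 was 0.559 in young and 0.263 in aged with Col4a1, and 0.485 and 0.229 with Col4a2. In all libraries its r with Col4a1 was thus close to that with Col4a3 (0.467). With Col4a5 the r was 0.184 (adjusted permutation p 0.240, rho 0.135).

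Marker genes of vessel cells moved with Col4a1, Col4a2 and Col4a5 and not detectably with Col4a3. These 30 relations, of 5 chains with 6 marker lists, were added after the values had been seen. The mean log2 level of 8 endothelial markers, among them Cldn5 and Pecam1, had r of 0.667 with Col4a1, 0.858 with Col4a2 and 0.567 with Col4a5 (rho 0.615, 0.818 and 0.531, adjusted permutation p 3.33e-05, 3.33e-05 and 0.000191). For 8 pericyte and smooth muscle markers r was 0.753, 0.818 and 0.717 (rho 0.701, 0.795 and 0.640, adjusted permutation p 3.33e-05 each). Without the 2 libraries that stood apart the endothelial r was 0.554, 0.823 and 0.442, and the pericyte r was 0.675, 0.737 and 0.659.

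Müller glia and rod markers moved with the same chains in opposite directions. The r of Col4a1, Col4a2 and Col4a5 was 0.614, 0.730 and 0.563 with Müller glia markers and -0.598, -0.761 and -0.519 with rod markers (adjusted permutation p up to 0.000625). These chains thus moved with more than one of the lists.

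For Col4a3 the r was 0.0545 with endothelial markers, 0.0306 with pericyte, 0.109 with Müller glia, 0.137 with pigment epithelium, -0.0312 with lens and 0.0248 with rod markers, and the smallest adjusted permutation p was 0.512. In the library with the lowest endothelial level, young ZT10 replicate 4, Col4a3 was at 2.47 RPKM beside 2.65 to 2.73 in the other 3, while Col4a1 was at 0.191 beside 1.61 to 1.99. That library was also low in Müller glia markers. Aged ZT6 replicate 3 had a summed endothelial level of 19.3 RPKM, where the median of the 45 others was 16.4. Its Col4a1 was nonetheless at 0.262 RPKM beside 1.06 to 1.27, and its Col4a3 at 7.81 beside 6.56 to 7.44. Col4a4 had r of 0.493 with Müller glia markers (adjusted permutation p 0.00196), which was 0.155 (adjusted p 0.575) without the 2 libraries that stood apart.

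**Figure D4:**
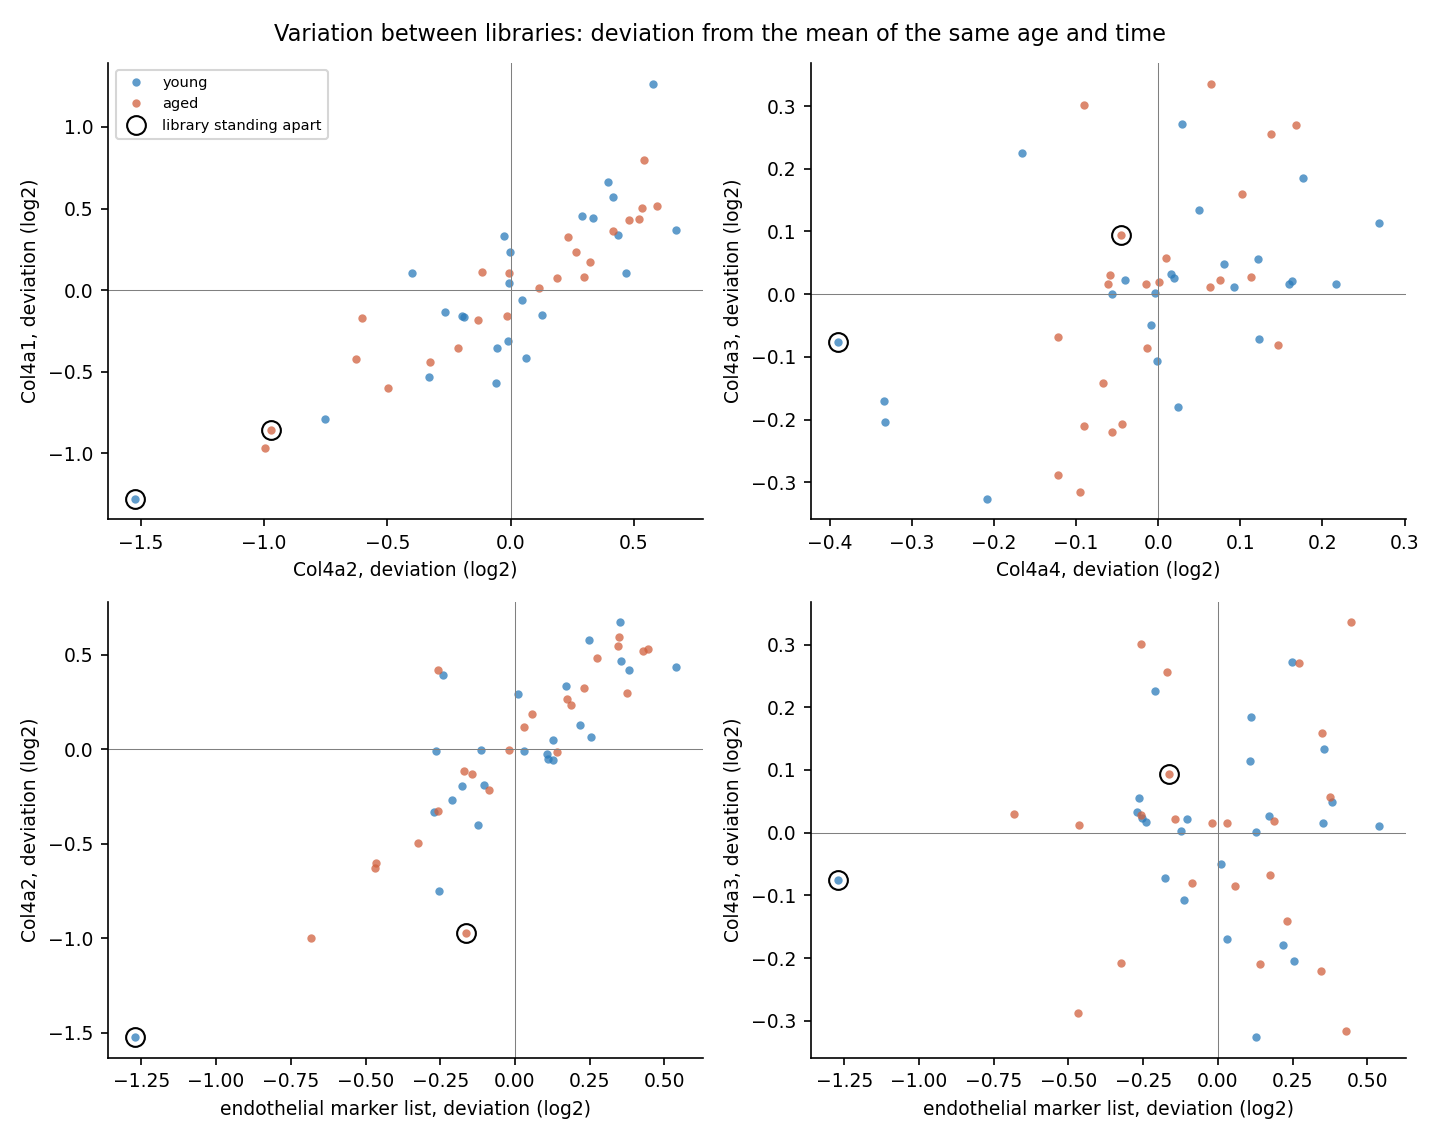
Deviation of log2(RPKM + 0.5) of each library from the mean of its age and time, for Col4a1 against Col4a2, Col4a3 against Col4a4, and Col4a2 and Col4a3 against the mean of the endothelial marker list. Blue points are young, orange points aged, and the circles mark the 2 libraries that stood apart; Col4a2 follows the endothelial list (r 0.858) and Col4a3 does not (r 0.0545).

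The genes whose deviations were most like those of Col4a3, over 47 libraries and as a description, were Hfe, the hemochromatosis gene (r 0.634), Nod2, an intracellular sensor of bacterial peptide (0.537), Pls1, an actin-bundling plastin (0.491), Efcab7 (0.479) and Lyz2, a lysozyme (0.472). Without the 2 libraries that stood apart these were 0.650, 0.623, 0.507, 0.549 and 0.489. Most like Col4a1 were Igfbp7, a secreted protein of vessel walls (0.886), the matrix protease Adamts10 (0.857), the laminin receptor subunit Itga6 (0.837), Tdrd9 (0.837) and Spag5 (0.835), which were 0.848, 0.806, 0.789, 0.785 and 0.765 without those libraries.

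Genes around the type IV collagen network were taken from 6 lists, among them the TGF-beta pathway and other collagens. Of 135 genes 134 were in the data and 82 passed the filter. Of these 1 was higher and 2 were lower in aged at an adjusted p under 0.05 in limma, beside 2.41% and 1.83% of all genes tested. The called genes were in the lists of the TGF-beta pathway (Acvrl1) and of other collagens (Col19a1 and Col20a1). The median age difference of the 82 was -0.08 on the log2 scale, beside -0.02 over all genes. When both libraries that stood apart were left out, 3 were higher and 22 lower, beside 1110 (7.24%) and 1423 (9.29%) of all genes. Without young ZT10 replicate 4 alone 20 of the 82 were lower, beside 933 of all 15321 genes. Leaving out any one of 29 other libraries gave 1 lower in place of 2.

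Among the 11 tested basement membrane partners, 0 were higher and 0 lower in aged in limma (median -0.09), and without the 2 libraries 0 and 2. The laminin chains Lamb1 and Lamc1 had age differences of -0.12 ± 0.16 and 0.05 ± 0.05. For Agrn, the proteoglycan agrin, the young mean was 5.68 ± 2.18 RPKM (SD, n = 24) and the aged mean 4.35 ± 1.72 (n = 23), a difference of -0.34 ± 0.17 (adjusted p 0.307 in limma). It was -0.41 ± 0.11 without the 2 libraries, where Agrn and Sparc, a collagen-binding matrix protein, were the 2 called lower. None of the 11 was rhythmic in either age, where 19.7% of all genes were in young and 14.4% in aged.

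Of the 10 tested collagen receptors 0 were higher and 0 lower, beside 2.41% and 1.83% of all genes, with a median of -0.05. Rhythm was found for 0 in young and 0 in aged, beside 19.7% and 14.4% of all genes. The integrin subunit Itgb1 differed by -0.02 ± 0.12 and the collagen receptor kinase Ddr1 by -0.17 ± 0.21. With both libraries left out 0 were higher and 3 lower, namely Ddr1 (-0.28 ± 0.10), Itgb5 and Dag1.

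The 20 tested genes of collagen synthesis and crosslinking had 0 higher and 0 lower in aged (median -0.08), and 0 and 5 without the 2 libraries. Rhythm was found for 3 in young and 5 in aged, beside 19.7% and 14.4% of all genes. P4ha1, a prolyl hydroxylase subunit that stabilises the collagen helix, had amplitudes of 0.55 ± 0.07 in young and 0.68 ± 0.08 in aged, with peaks at ZT 16.86 and 17.21 and adjusted p of 1.15e-05 and 6.81e-06 in limma. It thus peaked in darkness, when Col4a3 was low. The pigment epithelium marker Rpe65 also peaked in darkness (ZT 18.40 and 17.67), and a part of that tissue in the P4ha1 rhythm was not tested. Plod3, a lysyl hydroxylase, was rhythmic in young with an amplitude of 0.23 ± 0.05, a peak at ZT 10.23 and an adjusted p of 0.00567.

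Of 12 tested metalloproteinases and inhibitors 0 were higher and 0 lower (median -0.03), and 0 and 3 without the 2 libraries. Rhythm was found for 0 in young and 3 in aged, beside 19.7% and 14.4% of all genes. Timp3, an inhibitor bound to Bruch's membrane, had an amplitude of 0.43 ± 0.11 and a peak at ZT 17.20 in aged (adjusted p 0.0253 in limma). The pigment epithelium marker Rpe65 peaked at ZT 17.67 in aged, and a part of that tissue in the Timp3 rhythm was not tested. Bmp1, a procollagen protease, had an amplitude of 0.22 ± 0.06 and a peak at ZT 10.70 in aged (adjusted p 0.0343).

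Of 13 tested genes of the TGF-beta pathway, which raises matrix synthesis in many tissues, 0 were higher and 1 lower in aged (median -0.02), and 1 and 5 without the 2 libraries. The gene that fell was Acvrl1, an endothelial receptor, from 0.727 ± 0.205 to 0.556 ± 0.201 RPKM, by 0.23 ± 0.07 on the log2 scale (adjusted p 0.0455 in limma). Its call was lost when any one of 30 of the 47 libraries was left out, with adjusted p from 0.0202 to 0.0794. Thbs1, an activator of latent TGF-beta, was rhythmic in both ages, with amplitudes of 0.85 ± 0.14 and 0.82 ± 0.17 and peaks at ZT 19.61 and 18.49 (adjusted p 0.000399 and 0.00595). The pigment epithelium marker Rpe65 peaked near these times (ZT 18.40 and 17.67), and a part of that tissue in the Thbs1 rhythm was not tested.

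Among the 16 tested genes of other collagens 1 was higher and 1 lower in aged (median -0.12), and 2 and 4 without the 2 libraries. Col19a1, a collagen of basement membrane zones that is made by neurons, was at 0.892 ± 0.436 RPKM in young and 1.39 ± 0.797 in aged, a difference of 0.37 ± 0.07 (adjusted p 0.000538 in limma). It was also rhythmic in both ages, with amplitudes of 0.55 ± 0.07 and 0.75 ± 0.07, peaks at ZT 6.89 and 7.38 and adjusted p of 1.29e-05 and 1.58e-06. Its peak lay within 2 h of that of Col4a3. Col20a1 fell from 2.26 ± 0.557 to 1.67 ± 0.379 RPKM, by 0.35 ± 0.07 (adjusted p 0.00134). Col8a2, a collagen of Descemet's membrane, was rhythmic in both ages with peaks at ZT 18.89 and 17.92 (adjusted p 0.00822 and 0.00234). These peaks lay near those of the pigment epithelium marker Rpe65 (ZT 18.40 and 17.67), and a part of that tissue was not tested.

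**Figure D5:**
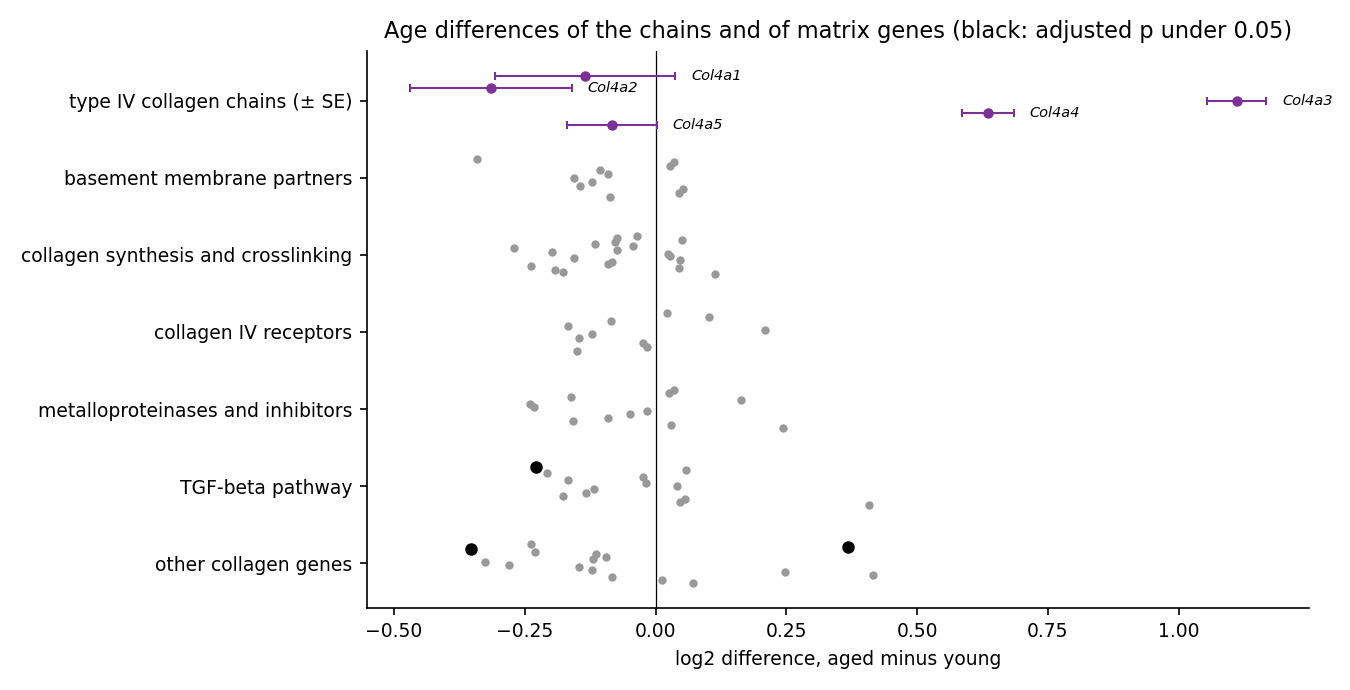
Log2 difference, aged minus young, of the 5 tested chains (purple, with SE as bars) and of 82 genes in 6 lists around the type IV collagen network, with 1 point per gene and black points for an adjusted p under 0.05. The differences of Col4a3 (1.11) and Col4a4 (0.64) lie to the right of all listed genes, of which 3 are black.

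Markers of tissues beside the retina, and of cell types within it, gave these values next to the age differences of the chains. Among pigment epithelium markers 1 of 9 tested was higher in aged, Rgr, at 5.80 ± 4.59 and 11.5 ± 11.2 RPKM (0.76 ± 0.19, adjusted p 0.0109 in limma). Of 11 tested lens markers 3 were lower, Crygd (-2.59 ± 0.54), Crygc (-2.67 ± 0.57) and Crygb (-2.75 ± 0.60) (adjusted p 0.00125 to 0.00261). Of 7 microglia markers 1, Cd68, was higher (0.45 ± 0.13, adjusted p 0.0448), and of 5 blood markers 1, Alas2 (0.78 ± 0.21, adjusted p 0.0243). None of 5 endothelial and 3 pericyte markers passed. Of all genes tested 2.41% were called higher and 1.83% lower. Without the 2 libraries that stood apart, 3 of 9 pigment epithelium, 3 of 7 microglia and 4 of 5 blood markers were higher. So were 1 of 1 cornea and 1 of 3 ciliary epithelium markers. Lower were 3 of 11 lens, 1 of 8 Müller glia and 1 of 4 astrocyte markers. Of all genes 7.24% were then called higher and 9.29% lower, and again 0 endothelial and 0 pericyte markers passed. With pigment epithelium, lens and blood levels in the fit the age difference was 1.12 ± 0.07 for Col4a3 and 0.64 ± 0.06 for Col4a4.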

How the data were processed

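The authors deposited RPKM values, 1 column per library, per the file headers. Named in the submitters' processing notes, without roles, are HISAT2 2.2.1, Subread 2.0.6, FastQC 0.23.4 and the build GRCm39. The annotation release is not given in the sources used here. Per the labels' protocols RNA was selected with poly-T beads. Of the columns 1 matched no sample and was not used. Symbols and exon lengths came from GENCODE M21 (51884 of 57180 identifiers), and promoter letters from RefSeq, which held 5 of the 6 chains.

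Reads were recovered from the steps of the RPKM values. They were whole within 0.01 for 32767 genes with the annotated length and 4554 with the smallest length that gave whole reads, a choice that builds this in, and not whole for 2 of 37323. In all 69 within-group pairs of libraries the chi-square averaged 6.63 to 575 per gene, above sampling noise, so all were kept as separate replicates, which the labels describe as separate mice.

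A gene was tested if 12 or more libraries reached 0.5 RPKM (15321 genes). The test was limma 3.58.1 under R 4.3.3 on log2(RPKM + 0.5), with a trended prior and Benjamini-Hochberg adjustment. Age was fitted with time as a factor, rhythm in each age as 24 h cosine and sine terms, and differences as interaction terms. Correlations used two-sided permutation tests with 100000 resamples in numpy 2.4.6. The models were tested on simulated data. Members, lists and tests were chosen with earlier results of these data known. The lists were basement membrane partners, synthesis and crosslinking, receptors, metalloproteinases and inhibitors, TGF-beta, other collagens, and markers of rod, endothelium, pericyte, Müller glia, astrocyte, pigment epithelium, lens, fibroblast, cornea, ciliary epithelium, microglia and blood. Named were all chains, per matrix list up to 4 genes called for age and up to 2 rhythmic by smallest adjusted p, per marker list up to 3 called for age, the 5 genes most like Col4a3 and the 5 most like Col4a1, and Gnat1. One item of this rule is not reported here. Lamb1, Lamc1, Agrn, Sparc, Itgb1, Itgb5, Ddr1, Dag1, Cldn5, Pecam1 and Rpe65 were added after their values were seen. Other settings covered library weights, marker covariates, a replicate block, voom, another rhythm test, scaling, filter and pseudocount, and each library left out.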

Additional observations from a re-analysis of the deposited data

Results flagged for a closer look

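In 66 groups of 4 libraries, 1 per chain, age and time, the lowest or highest library was set against the nearest of the others, and 4 groups held a library whose gap took up more than 0.829 of the group's range. Chance flags about 1 in 20 such groups. Col4a1 in young ZT14 replicate 1 was at 5.19 RPKM, with the nearest at 1.62, and Col4a1 in young ZT22 replicate 2 was at 2.31 RPKM, with the nearest at 1.38. Col4a5 in young ZT10 replicate 4 was at 0.0483 RPKM, with the nearest at 0.407. Col4a6 in young ZT6 replicate 1 was at 0.0355 RPKM, with the nearest at 0.271. No library of Col4a3 or Col4a4 was singled out in this way.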

How the results depend on the processing

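Low levels limit Col4a5 and Col4a6, and the 2 libraries that stood apart limit Col4a1, Col4a2 and the matrix lists. Chains rhythmic in young (2) numbered 1 with an F test of the 6 times and 2 to 3 when each library was left out. They numbered 3, with Col4a2 added, with library weights or without the 2 libraries. Chains rhythmic in aged (1) numbered 2 with a pseudocount of 0.1, a filter of 1 RPKM in 24 libraries, quantile normalization, voom, the F test, endothelial and pericyte covariates (added after seeing the data) or without the 2 libraries, 0 with pigment epithelium, lens and blood covariates, and 1 to 2 with each library left out. They were 2 without aged ZT14 replicate 1, ZT14 replicate 2, ZT22 replicate 1 or ZT6 replicate 3. Chains with an interaction (0) numbered 2 with library weights.

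Matrix genes higher in aged (1) numbered 2 with a pseudocount of 0.1 or quantile normalization, 3 without the 2 libraries or with library weights, 6 with endothelial and pericyte covariates, 0 with the stricter filter or a fold over 1.5, and 1 to 2 with each library left out (2 without aged ZT14 replicate 1, ZT18 replicate 3, ZT22 replicate 3 or ZT22 replicate 4). Those lower (2) numbered 1 with the stricter filter or pigment epithelium, lens and blood covariates, 4 with quantile normalization, 22 without the 2 libraries, 15 with library weights, 0 with the fold, and 1 to 20 with each library left out (20 without young ZT10 replicate 4, 1 without any one of 29 others). Those rhythmic in young (9) numbered 4, 18, 25, 38, 3 and 22 with the stricter filter, quantile normalization, the 2 libraries left out, library weights, the tissue covariates and the endothelial covariates, and 9 to 25 with each library left out, 25 without young ZT10 replicate 4. Those rhythmic in aged (12) numbered 7 with the stricter filter, 34 with library weights, 2 with the tissue and 5 with the endothelial covariates, 5 with the F test, and 8 to 14 with each library left out. The cause was not tested.

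The age difference of Col4a3 was 1.31 with voom on recovered reads, which adds no 0.5 RPKM, and 1.09 to 1.13 with each library left out. The replicate block changed no count of chains (2, 1, 0 and 0), and the age difference of Col4a3 was 1.11 with it. Replicate numbers do not pair mice: over 23 young and aged libraries of the same time and number, deviations correlated from -0.486 to 0.428, and 7 of 23 aged libraries correlated best with their own number.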
